A study of Mus musculus with 15 samples.

Results

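Respiratory complex I is encoded in part by nuclear genes whose symbols begin with Nduf, and every row of the deposited count table with such a symbol was taken. There were 42 of these among 18804 rows, and all 42 had enough counts to be among the 14293 genes tested. They comprised 36 complex I subunits, 4 assembly factors named Ndufaf, and Ndufa4 and Ndufa4l2, which carry the family name without being structural subunits of complex I. No row was present for Ndufb1, and the subunits encoded by mitochondrial DNA were not analysed here.

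The libraries were made from total RNA of white adipocytes differentiated in culture from mesenchymal precursors of C57BL/6J mouse ears. In the day 0 group, cells stayed at 37°C until harvest 16 days after adipogenesis was induced. Transfer to 31°C took place on day 15 for the libraries called day 1 and on day 4 for those called day 12, and both were harvested at the same age as day 0. All groups were induced with the same adipogenic mixture of methylisobutylxanthine, dexamethasone, insulin and troglitazone per the labels (the study's methods name rosiglitazone in 1 passage and troglitazone in another), and carried no transgene or deletion that the labels name. Each group held 5 libraries. Nothing in the labels says that these came from separate animals or cultures, so p-values measure the spread between these libraries, which may be technical. Time at 31°C and age at transfer to 31°C cannot be told apart at day 12, because those cells were also moved early in differentiation.

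Complex I, NADH:ubiquinone oxidoreductase, is the largest enzyme of the mitochondrial respiratory chain. It takes electrons from NADH, passes them through a flavin and a chain of iron-sulfur clusters to ubiquinone, and pumps protons across the inner membrane. Its peripheral arm is built from an N module, which oxidises NADH, and a Q module, which reduces ubiquinone. The membrane arm holds the proton pumps and is assembled from modules named after the mitochondrially encoded subunits ND1, ND2, ND4 and ND5. Core subunits carry the catalysis and are conserved from bacteria, whereas accessory subunits surround them, and assembly factors help the modules form but are absent from the finished enzyme. White adipocytes use the chain to oxidise fatty acids and pyruvate, at a lower rate than brown adipocytes.

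Promoter sequences are shown first. The nuclear promoters of these genes have been linked to a small set of factors, whose part in the changes below was not tested. RefSeq promoter entries (build GRCm38.p6, 250 bases before to 50 bases after the start) were matched by symbol for 37 of the 42 genes. Ndufa2, Ndufa4l2, Ndufb9 and Ndufs1 were among those with no entry. Both strands were searched for the letters of 4 motifs. The motif of YY1, AAGATGGC, was found in 7 members (18.9%), against 2.75% of all promoters in the table and 4.62% of the promoters of genes tested. The palindromic NRF1 motif, spelled by the capitals in the Ndufaf4 window below, was found in 2 members (5.41%), against 0.971% of all promoters and 2.1% of those of genes tested. The ETS motif CCGGAAG was held by 5 members (13.5%), against 8.86% and 17.9%, and the ERR motif AAGGTCA by 3 (8.11%), against 4.72% and 3.93%. No member held matches to more than 1 of the 4 motifs, so none overlapped. The windows below hold the YY1 and NRF1 letters, read 5′ to 3′ on the strand of the gene, with the motif in capitals.
Ndufb8, chr19:44555393-44555415, minus strand: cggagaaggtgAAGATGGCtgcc
Ndufs4, chr13:114388045-114388070, minus strand: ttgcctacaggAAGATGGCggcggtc
Ndufs6, chr13:73328433-73328460, minus strand: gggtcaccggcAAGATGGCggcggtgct
Ndufs7, chr10:80249462-80249491, plus strand: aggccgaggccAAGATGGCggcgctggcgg
Ndufa9, chr6:126849097-126849126, minus strand: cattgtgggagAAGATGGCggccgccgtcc
Ndufa3, chr7:3617384-3617413, plus strand: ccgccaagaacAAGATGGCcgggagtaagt
Ndufc1, chr3:51408915-51408944, minus strand: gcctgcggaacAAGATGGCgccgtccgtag
Ndufaf4, chr4:24897960-24897989, plus strand: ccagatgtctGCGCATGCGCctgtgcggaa
Ndufa11, chr17:56717692-56717721, plus strand: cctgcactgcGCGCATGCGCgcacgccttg
All 7 YY1 matches lay downstream of the RefSeq start, by 22 to 38 bases, and on the gene's own strand. The NRF1 matches lay upstream, at 113 bases before the start in Ndufaf4 and 60 in Ndufa11. Among the carriers of the YY1 letters, log2 fold changes after 1 day ran from the 0.61 of Ndufb8 down to values that did not pass the test in Ndufa3 and Ndufc1. After 12 days Ndufb8, Ndufa9 and Ndufs6 were called higher, Ndufs7 and Ndufc1 lower with TMM, and Ndufs4 and Ndufa3 neither. A match of letters describes the sequence and is not a measurement of binding.

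Libraries held between 64648178 and 133270973 counts, with replicates spread by a coefficient of variation of 5.25% for a typical gene. No library repeated another. Levels are given as CPM, counts relative to library size after scaling by TMM, and fold changes as log2. A gene was called where edgeR's quasi-likelihood test gave an adjusted p (Benjamini-Hochberg, all 14293 genes) under 0.05, and those that also passed 1.5-fold, the limit of the study, are counted separately. Adipocyte markers were present in every library, with a level summed over 8 genes of 4418 to 5085 CPM at day 0, 5501 to 6165 at day 1 and 4904 to 5471 at day 12, so that every day 1 library lay above every day 0 library, and the brown and beige markers Ucp1, Cidea and Cox8b were each at or below a mean of 0.15 CPM in every group. Dio2, the remaining gene of that list, averaged 164, 213 and 73.3 CPM at days 0, 1 and 12. The summed level of 7 fibroblast and progenitor markers was lower in each exposed group without overlap. It was 9906 to 10173 CPM at day 0, 8727 to 9024 at day 1 and 8107 to 8462 at day 12. Dcn and Col1a1, at means of 5984 and 2649 CPM at day 0, made up most of this sum. Gene by gene the list was divided. Of the 6 genes tested, 2 rose and 4 fell by the day 1 calls, and the day 12 calls were 3 in each direction. Pdgfra (0.23 and 0.34) and Thy1 (0.11 and 0.078) were called higher both times, and Pdgfrb (-0.21 and 0.49) only at day 12. The part of either list in the Nduf changes was not tested. In bulk samples such as these, fewer cells of a type and less RNA per cell cannot be told apart.

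To ask what a day at 31°C did to complex I transcripts, the day 1 libraries were compared with day 0. Of the 42 Nduf genes, 33 were called higher, where 35.2% of all genes tested were, and 3 were called lower, where 36.1% of all genes were. The changes were small. Those over 1.5-fold numbered 3 among the higher genes (Ndufb9, Ndufv1 and Ndufb8), where 7.69% of all genes passed, and 1 among the lower (Ndufa4l2), where 13.4% passed. The median log2 fold change was 0.24, beside -0.0088 over all genes tested. In 29 members every day 1 library lay above every day 0 library, a pattern seen in 28.6% of all genes, and in 2 every day 1 library lay below, as in 28.8% of all genes. Members called lower were Ndufa4l2, Ndufb2 and Ndufa6. Nduf transcripts are short, with a median length of 952 bases against 2977 for all genes tested, and short genes as a class had slightly higher day 1 values. Among genes under 1000 bases, 809 that are not members had a median of 0.10, beside 0.25 for the 23 members of that length. After a trend with length was removed from each library, 24 members were called higher and 4 lower, with a median of 0.16, and Ndufa7, Ndufa13, Ndufaf1, Ndufb3, Ndufb5, Ndufb10, Ndufb11, Ndufc2 and Ndufs7 were no longer called higher (0.01 to 0.075). With libraries scaled to Hprt, Tbp and Ppia, 22 were called higher and 4 lower, where 26% and 44.5% of all genes were. The median of the members was then 0.14 and that of all genes -0.11.

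**Figure D1:**
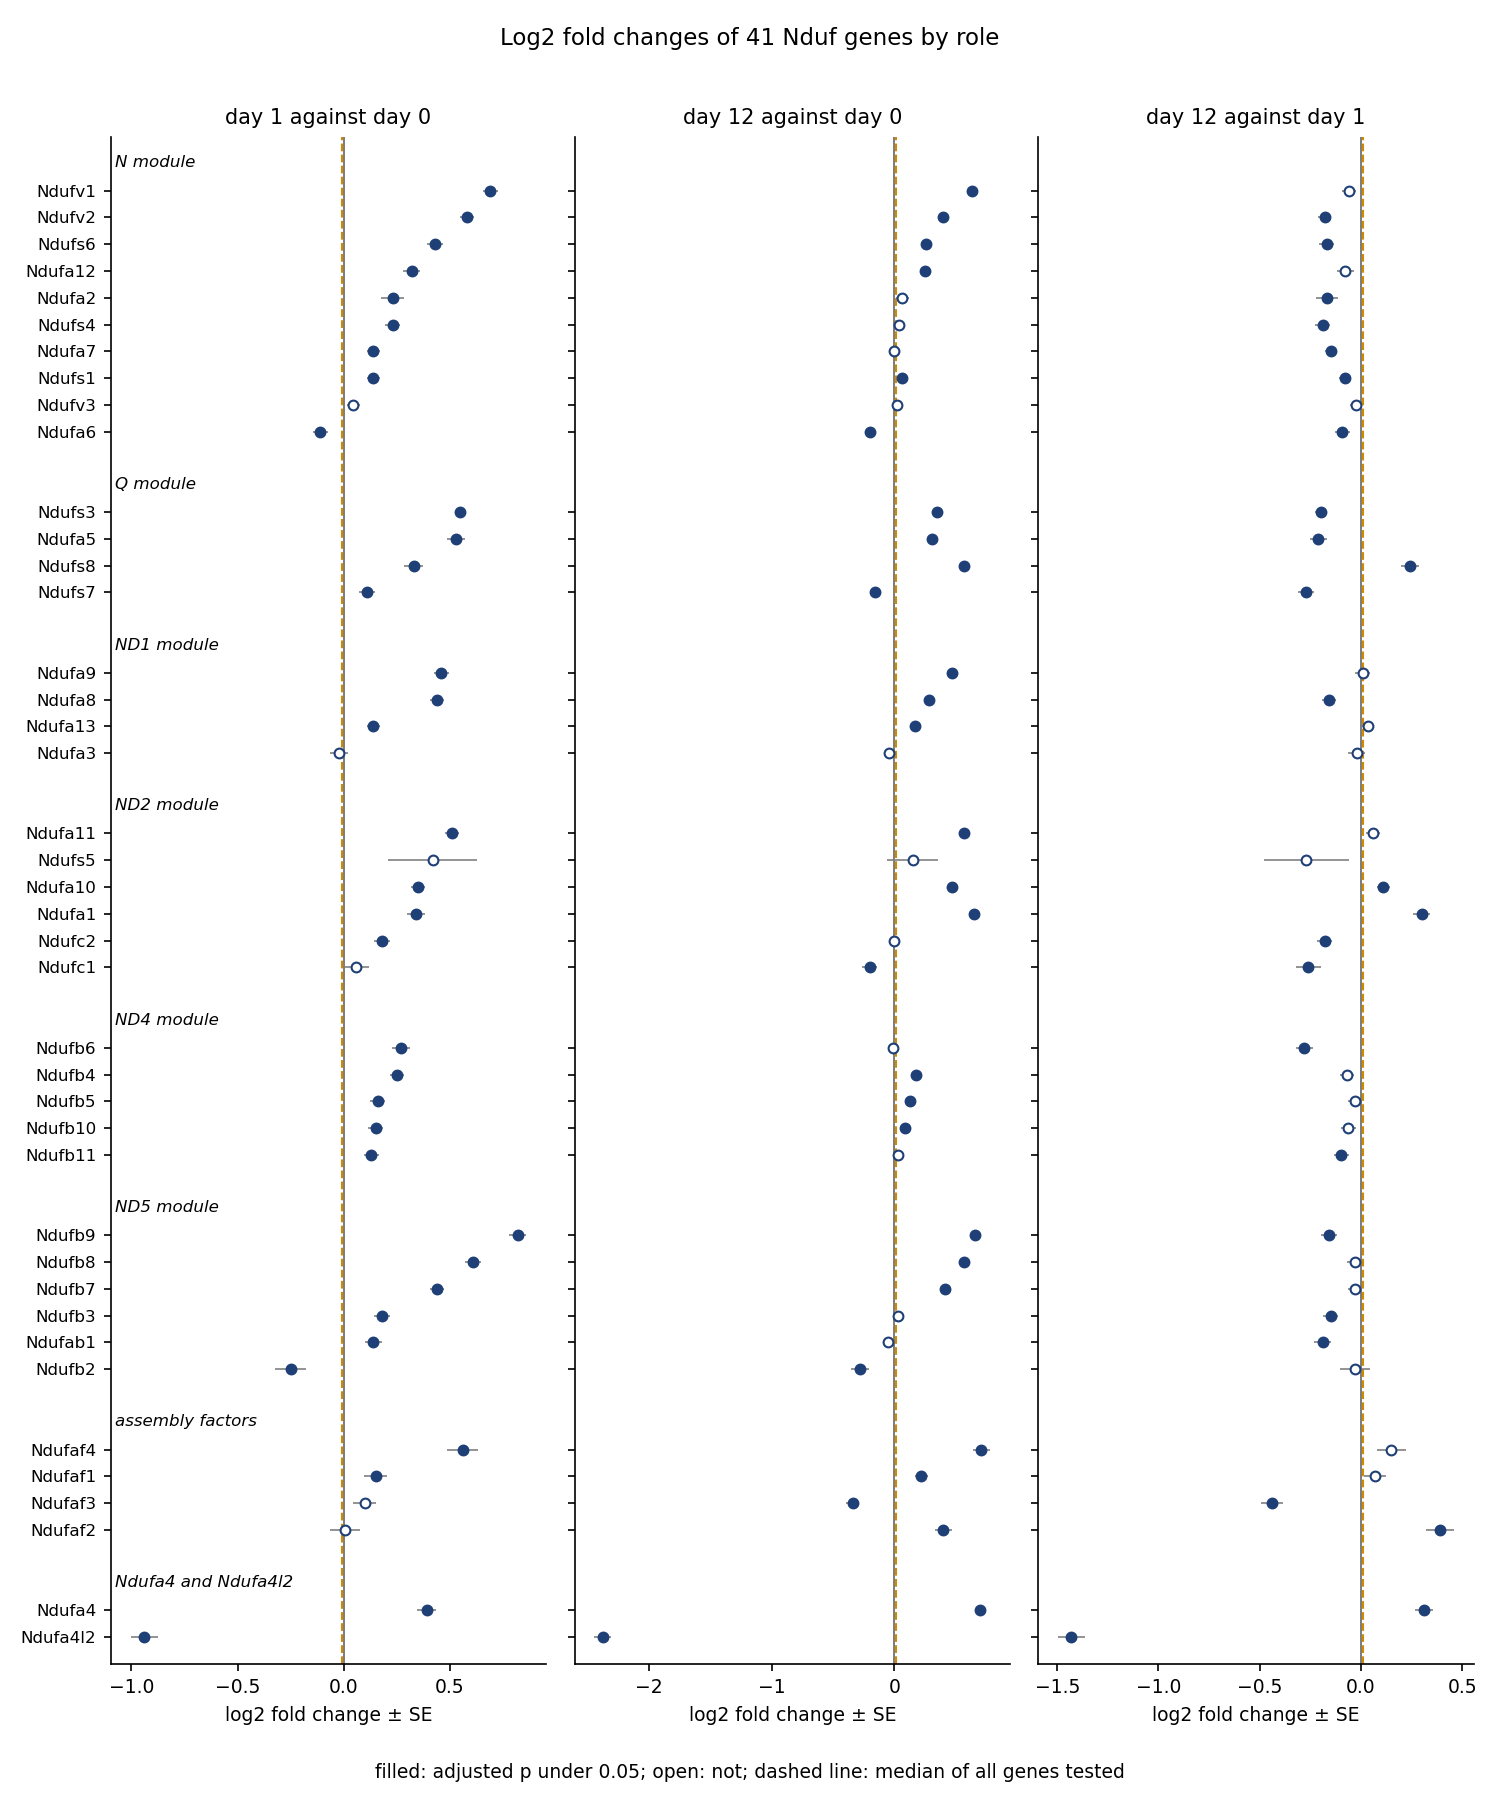
Log2 fold changes (points) with standard errors (bars) of 41 Nduf genes, grouped by role, in the comparisons of day 1 with day 0, day 12 with day 0 and day 12 with day 1. Filled points passed an adjusted p of 0.05, the dashed line is the median of all genes tested, and most filled points lie above 0 in the first panel. In the last panel 20 lie below 0, a direction that turned for the median with total counts or reference genes.

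After 12 days, 25 of the 42 were called higher than at day 0, where 39.2% of all genes were, and 6 lower, where 37.2% were. Past 1.5-fold were 5 higher (Ndufaf4, Ndufa4, Ndufb9, Ndufa1 and Ndufv1), beside 12.9% of all genes, and 1 lower (Ndufa4l2), beside 16.2%. The share past the fold limit was thus near the background in the upward direction. The median log2 fold change was 0.18, beside 0.012 over all genes. The 5 libraries of each group were fully separated in 23 members that were higher, as in 33% of all genes, and in 4 that were lower, as in 31.7% of all genes. Lower calls fell on Ndufa4l2, Ndufaf3, Ndufb2, Ndufc1, Ndufa6 and Ndufs7. These counts depended on the scaling. Dividing by total counts gave 35 higher and 2 lower members, and scaling to the reference genes Hprt, Tbp, Gapdh and Ppia gave 35 and 1, while the median of all genes itself moved to 0.21 and 0.23. Of all genes, 54.1% and 55.6% were called higher there, and 25.4% and 23.7% lower. Over all genes, lower calls made up 48.7% of calls with TMM, but 31.9% and 29.8% under these scalings.

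The contrast of day 12 with day 1 tests the difference between the exposures. With TMM, 5 members were called higher at day 12 (Ndufaf2, Ndufa4, Ndufa1, Ndufs8 and Ndufa10), where 34.3% of all genes were, and 20 lower, where 32.7% were, with a median of -0.078 beside 0.0092 over all genes. The direction turned under total counts, which gave 21 higher and 4 lower, and under reference gene scaling, which gave 24 and 2. Of all genes, 54% and 57.9% were called higher there, and 18.6% and 15.5% lower. The members had medians of 0.094 and 0.14, but the medians of all genes were 0.18 and 0.23. Such scalings shift every gene alike, so the gap between the members and all genes is about the same under each by construction. With TMM this gap was -0.088, and with the length trend, which does not shift genes alike, it was -0.041. Among all genes, lower calls were 48.8% of calls with TMM, and 25.6% and 21.1% under the other scalings in the same order. Ndufa4l2 alone passed 1.5-fold, downward, as did 8.5% of all genes, and no member passed it upward, against 10.6% of all genes. Separate groups were seen in 4 members upward (26.5% of all genes) and in 13 downward (25.9%).

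**Figure D2:**
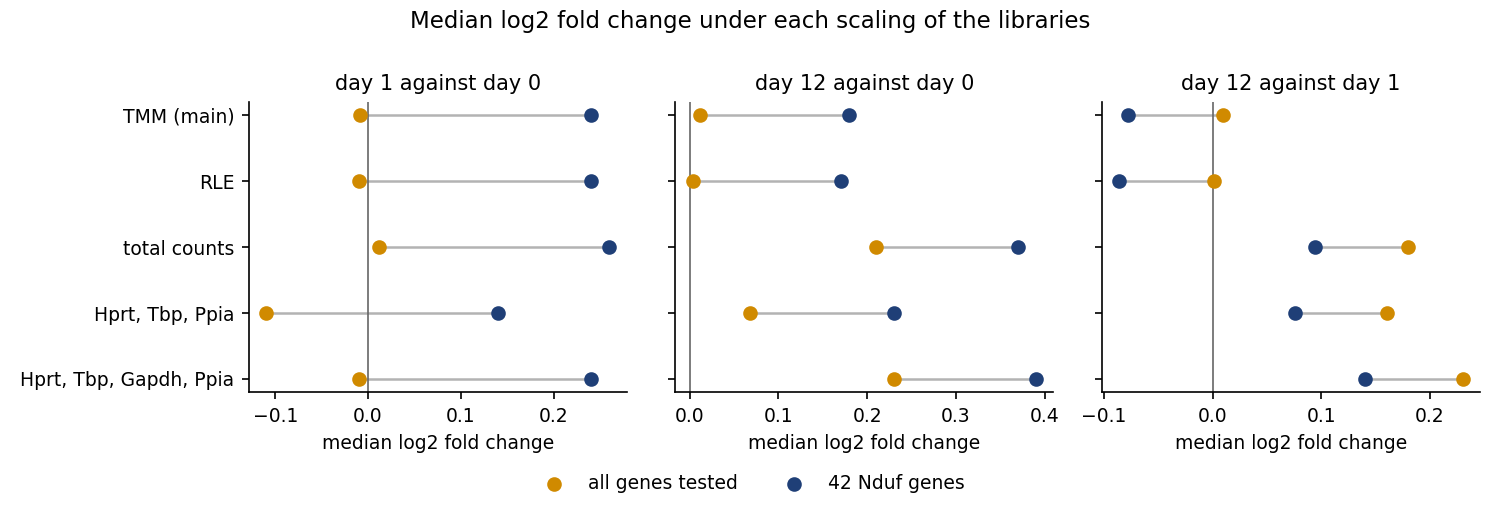
Median log2 fold change of the 42 Nduf genes and of all genes tested (horizontal axis) under each way of scaling the libraries (rows), in the comparisons of day 1 with day 0, day 12 with day 0 and day 12 with day 1. Both medians shift together by construction, with gaps near 0.25, 0.16 and -0.088, and the sign of the Nduf median in the last panel is negative only with TMM and with RLE, the size factors of DESeq2.

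The reference genes did not hold still relative to TMM. Gapdh averaged 1274 CPM at day 0 and 785 at day 12, while Ppia went from 562 to 718 CPM, Hprt from 106 to 88.9 and Tbp from 17.3 to 14.4. Which scaling reflects the amount per cell cannot be read from these libraries, and the values below use TMM.

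The 7 nuclear core subunits were all called higher after 1 day (35.2% of all genes), with a median log2 fold change of 0.33. After 12 days 6 were called higher and 1 lower (39.2% and 37.2% of all genes), with a median of 0.35. The levels of the 7 summed to 436, 569.9 and 540.3 CPM in the 3 groups. Ndufv1, which binds NADH and the flavin, had the largest increase of the 7. Its level was 58.4, 59.3, 54.3, 55.8 and 56.4 CPM in the day 0 libraries, 88.5, 91, 94.8, 87.2 and 97.3 at day 1, and 92.3, 89.7, 82.5, 84.3 and 91.5 at day 12. Both exposed groups lay well above day 0 and overlapped each other. The log2 fold change was 0.69 ± 0.036 (SE, adjusted p = 1.19e-16) at day 1 and 0.63 ± 0.036 (adjusted p = 5.61e-16) at day 12.

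Its partner Ndufv2, an iron-sulfur protein at the entry of the electron path, was lower at day 12 than at day 1. Levels were 58.8, 56.1, 53.9, 57.6 and 58.5 CPM at day 0, 91.2, 82.3, 83.1, 83.5 and 84.6 at day 1, and 73.9, 73.5, 74.3, 79.1 and 74.4 at day 12. The 3 groups did not overlap. Log2 fold changes from day 0 were 0.58 ± 0.033 and 0.40 ± 0.033 (adjusted p = 9.34e-16 and 3.48e-12). Between day 12 and day 1 the difference was -0.18 ± 0.032 (adjusted p = 1.58e-05), but it was 0.039 with the reference genes.

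Ndufs1, the large iron-sulfur subunit of the N module, changed least among the core genes by day 12. Day 0 libraries had 71.1, 68.2, 67.8, 71.7 and 73.7 CPM, day 1 libraries 78.6, 75.4, 78.8, 77.8 and 78.5, and day 12 libraries 75, 72.1, 72.6, 72.6 and 76. Only day 1 was separate from day 0. The day 1 change was 0.14 ± 0.029 (adjusted p = 6.6e-05), and the day 12 change of 0.063 ± 0.029 had an adjusted p of 0.0481, which was lost without any 1 of day 0 replicates 1, 2 or 3, day 1 replicates 3 or 4, or day 12 replicates 1 or 5 (0.049 to 0.066). It was also lost with RLE (0.054), DESeq2 (0.056), no filter (0.067), a mean of at least 10 CPM (0.044), the larger library number series (0.069) and the GC trend (0.029).

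Ndufs7, an iron-sulfur protein of the Q module close to where ubiquinone binds, took a different course from the other core genes described. It read 42, 42.7, 41.4, 42.5 and 42.3 CPM at day 0, 44, 44.8, 44.4, 43.6 and 51.1 at day 1, and 38.6, 39.8, 36.3, 36.5 and 37.8 at day 12. Its day 12 libraries all lay below day 0. The day 1 change of 0.11 ± 0.039 (adjusted p = 0.0105) was not called without day 1 replicate 5 (0.068), with a mean of at least 10 CPM (0.067), in the larger library number series (0.075), with the length trend (0.01) or with Hprt, Tbp and Ppia (0.015). At day 12 Ndufs7 was called lower, at -0.16 ± 0.039 (adjusted p = 0.000542), but it stood at 0.035 under total counts and 0.06 under reference gene scaling.

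Ndufs3, a scaffold on which the Q module forms, read 56.8, 57.5, 55.4, 56.5 and 58.8 CPM at day 0, 86.3, 81.3, 85.1, 82.2 and 82.6 at day 1, and 72.8, 73.8, 73.1, 71 and 72.5 at day 12. The 3 groups were separate, with log2 fold changes from day 0 of 0.55 ± 0.028 and 0.35 ± 0.028 (adjusted p = 5.62e-17 and 1.37e-12). Of its 50-base words, 39.7% also occur in transcripts of another gene, so part of its count may be shared. Ndufs8, which holds iron-sulfur clusters next to the quinone site, was the core gene that kept increasing. Its level was 23.9, 21.9, 20.8, 22.4 and 24.4 CPM, then 30.3, 26.9, 30.2, 27.6 and 27.5, then 34.6, 33.5, 32.7, 33.1 and 34.6. Each group was separate from the next, and it was higher by 0.33 ± 0.044 at day 1 (adjusted p = 1.18e-07), 0.57 ± 0.044 at day 12 (adjusted p = 8.25e-13) and 0.24 ± 0.044 between the exposures (adjusted p = 1.69e-05), all log2.

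**Figure D3:**
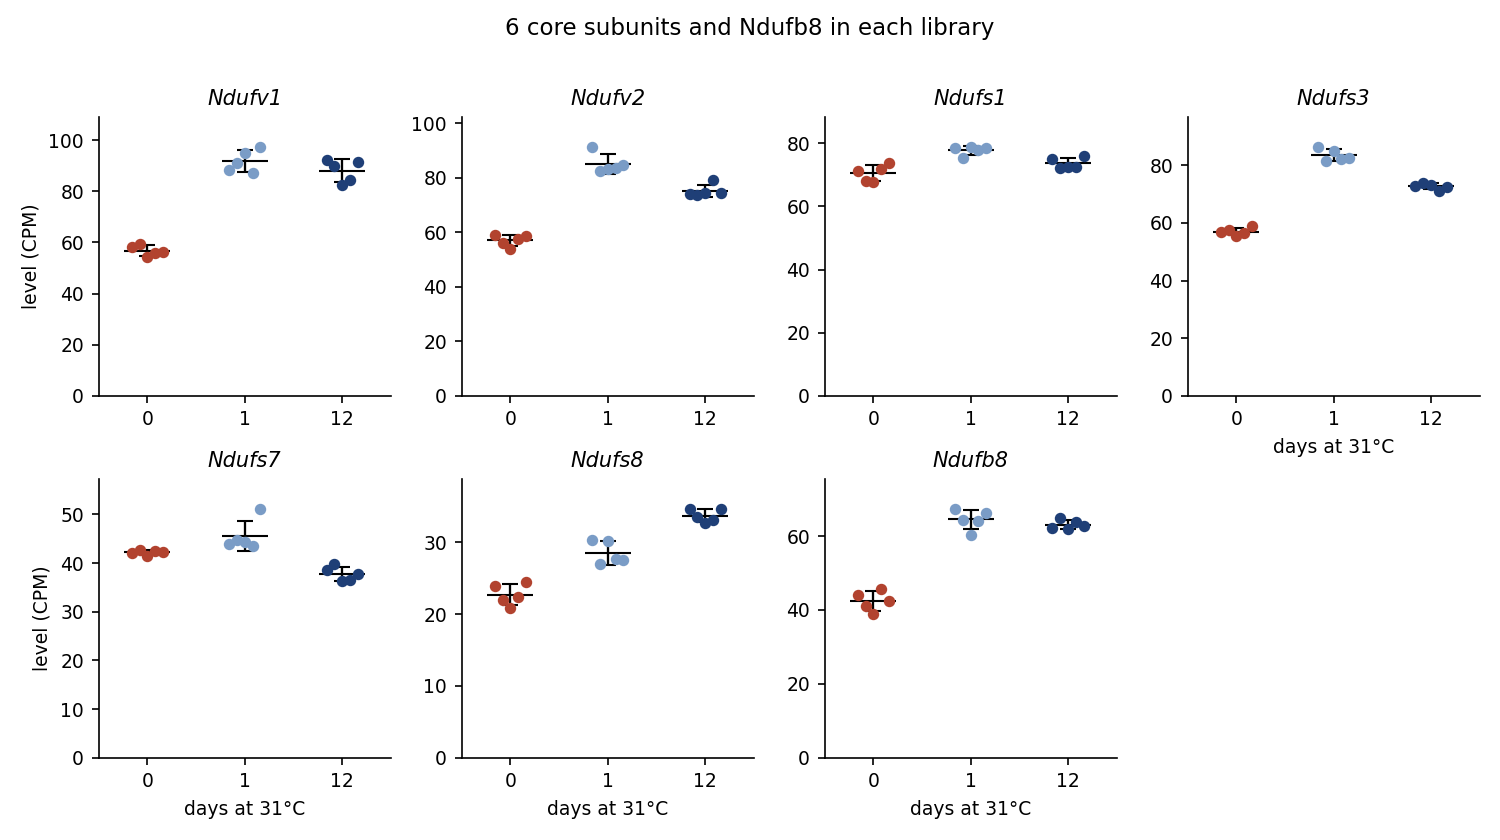
Level in CPM (vertical axis, from 0) of 6 nuclear core subunits and of Ndufb8 against days at 31°C, with a point for each of 5 libraries per group and black lines for the mean ± SD. Exposed libraries stand above day 0 in Ndufv1, Ndufv2, Ndufs3, Ndufs8 and Ndufb8, whereas Ndufs7 is lowest at day 12 with TMM and not with total counts or reference genes.

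Accessory subunits were also mostly called higher at day 1. Of 29, 23 were called higher and 2 lower after 1 day (35.2% and 36.1% of all genes), with a median of 0.23. After 12 days 15 were higher and 3 lower (39.2% and 37.2% of all genes), with a median of 0.13. Ndufb8, a membrane-arm subunit of the ND5 module and the complex I protein that the study followed by immunoblot, had the third largest increase of the family at day 1. Its level was 44, 41.1, 38.8, 45.7 and 42.4 CPM at day 0, 67.3, 64.4, 60.3, 64.1 and 66.3 at day 1, and 62.1, 64.8, 62, 63.8 and 62.8 at day 12. Both exposed groups were above day 0 and overlapped each other, and the log2 fold changes were 0.61 ± 0.037 (1.52-fold, adjusted p = 7.14e-15) and 0.57 ± 0.037 (1.49-fold, adjusted p = 1.51e-14). In the GENCODE M21 annotation, 19.7% of its exon bases lie in Gm20538 on the same strand.

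Ndufb9, another ND5 module subunit, showed the largest day 1 increase of the family. It read 53.2, 51.6, 48.9, 56.1 and 56.4 CPM at day 0, 92.7, 97.2, 88.7, 93.3 and 98 at day 1, and 88.3, 84.1, 79.4, 79 and 89.6 at day 12. No exposed library reached down to day 0. Log2 fold changes were 0.82 ± 0.041 (1.76-fold, adjusted p = 1.21e-15) and 0.66 ± 0.041 (1.58-fold, adjusted p = 7.06e-14). Gm49356 covers 28.6% of its exon bases on the same strand.

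In contrast, Ndufb2 of the same module was lower in both exposed groups. Day 0 libraries had 23.1, 20.4, 21, 24.7 and 21.9 CPM, day 1 libraries 16.8, 20.3, 20.3, 16.9 and 19, and day 12 libraries 20, 16, 17.6, 16.9 and 20.8. Day 1 was separate from day 0 by a narrow margin and day 12 overlapped it. Changes were -0.25 ± 0.074 (adjusted p = 0.00525) and -0.28 ± 0.074 (adjusted p = 0.00202), the latter not called with total counts (-0.085) or reference genes (-0.06). Elsewhere in the ND5 module Ndufb7 was higher by 0.44 at day 1 and 0.41 at day 12 (adjusted p = 7.79e-13 and 2.74e-12). Ndufb3 and Ndufab1, the mitochondrial acyl carrier protein that also serves fatty acid synthesis, were called higher at day 1 only, by 0.18 and 0.14, and with TMM they differed between day 12 and day 1 by -0.15 and -0.19, values that became 0.066 and 0.028 with the reference genes. In all, 5 of 6 ND5 genes were called higher at day 1 (35.2% of all genes) and 3 at day 12 (39.2%), with 1 lower each time.

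In the N module 8 of 10 genes were called higher after 1 day and 5 after 12 days, with 1 lower at each time. Of all genes, 35.2% and 39.2% were called higher, so the day 12 count stood nearer to that share. The module median went from 0.23 to 0.064. Beside the core genes, Ndufs6, a zinc-binding subunit needed late in assembly, was higher by 0.43 at day 1 and 0.26 at day 12. Ndufa12 was higher by 0.32 and 0.25, with 26.2% of its 50-base words shared with another gene. Ndufs4, which helps to fix the N module to the Q module, was higher by 0.23 at day 1 (adjusted p = 1.02e-06), Ndufa2 by 0.23 (adjusted p = 0.000844) and Ndufa7 by 0.14 (adjusted p = 9.66e-05), and these 3 did not pass the test at day 12. Tmco6 lies over 11.5% of the exon bases of Ndufa2 on the opposite strand. Ndufv3 passed in none of the comparisons, with group means of 88.5, 91.3 and 89.7 CPM. Ndufa6, a LYR-motif subunit, ran downward. Its level was 56.9, 56.9, 55.2, 56.2 and 55.4 CPM at day 0, 57, 48.7, 48.8, 51.6 and 54.5 at day 1, and 47.7, 50.1, 49, 50.7 and 47.3 at day 12. The day 1 libraries overlapped day 0, and the change of -0.11 ± 0.037 (adjusted p = 0.012) was not called without day 1 replicate 2 (-0.082) or without replicate 3 (-0.08). At day 12 all libraries lay below day 0, with a change of -0.20 ± 0.037 (adjusted p = 2.01e-05), which was -0.0051 and not called under total counts and 0.019 under reference gene scaling.

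All 5 Q module genes were called higher at day 1 (35.2% of all genes), with a median of 0.33. At day 12 there were 4 higher and 1 lower (Ndufs7), beside 39.2% and 37.2% of all genes. The accessory member Ndufa5 averaged 20.4 ± 1.09, 29.4 ± 0.716 and 25.4 ± 1.14 CPM (SD, n = 5 per group) at days 0, 1 and 12, with log2 fold changes of 0.53 ± 0.042 and 0.31 ± 0.042 (adjusted p = 2.13e-12 and 7.49e-08).

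At the base of the membrane arm, the ND1 module had 3 of 4 genes called higher at both times (35.2% and 39.2% of all genes). Ndufa9, which sits near the quinone site, was higher by 0.46 and 0.47 (adjusted p = 1.34e-12 and 6.14e-13), and Ndufa8 by 0.44 and 0.28. Ndufa13, also known as GRIM-19, was higher by 0.14 and 0.17, with 30% of its exon bases under Tssk6 on the opposite strand. Ndufa3 passed in none of the comparisons.

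The ND2 module had 4 of 6 genes called higher at day 1 (35.2% of all genes). By day 12 it had 3 higher and 1 lower (39.2% and 37.2% of all genes). Ndufa1, an X-linked gene needed for the membrane arm to form, increased in steps. Its level was 25, 23.3, 23.5, 26.6 and 25.6 CPM at day 0, 29.6, 32.8, 30.1, 32.4 and 32.3 at day 1, and 39.1, 37.4, 38.9, 36.6 and 41.7 at day 12. The 3 groups were separate, with log2 fold changes of 0.34 ± 0.043 at day 1, 0.65 ± 0.043 at day 12 and 0.30 ± 0.043 between the exposures (adjusted p = 3.43e-08, 2.74e-14 and 3.54e-07). Ndufa11 was higher by 0.51 and 0.57 and Ndufa10 by 0.35 and 0.47 in the same order, with Vmac over 12.8% of the exon bases of Ndufa11 on the opposite strand. Ndufc2 was called at day 1 only (0.18), and Ndufc1 was called lower at day 12 (-0.20 ± 0.062, adjusted p = 0.00572), but not with total counts (-0.0074) or the reference genes (0.019). Ndufs5 had only 43 to 92 counts per library, 31.1% of its 50-base words occur in another gene, and no comparison passed.

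The ND4 module had the lowest median of the 6 modules at day 1. All 5 were called higher at day 1 (35.2% of all genes), at 0.16, and 3 at day 12 (39.2% of all genes), with a median of 0.089. Ndufb6 read 35, 35.2, 32.7, 39.1 and 37.5 CPM at day 0, 43.1, 43.2, 42.8, 41.5 and 45.5 at day 1, and 36.6, 35, 33.8, 34 and 38.3 at day 12. The day 1 libraries stood above both other groups, which overlapped. Its day 1 change was 0.27 ± 0.043 (adjusted p = 1.8e-06), and between day 12 and day 1 it was -0.28 ± 0.043 (adjusted p = 1.21e-06), a difference of -0.062 and not called with the reference genes. Smim27 lies over 39% of its exon bases on the opposite strand. Ndufb4 was higher by 0.25 and 0.18, with 37% of its 50-base words shared with other genes, and Ndufb5 by 0.16 and 0.13. Ndufb10 was higher by 0.15 at day 1 and by 0.089 at day 12, the latter not called when day 0 replicate 3 (0.071) or 2 (0.08), or day 12 replicate 2 (0.08) or 5 (0.074), was left out, with a mean of at least 10 CPM (0.07) or with the length trend (0.045). Ndufb11, higher by 0.13, was called at day 1 alone. Mrpl47 covers 20% of the exon bases of Ndufb5 and Rbm10 12.9% of those of Ndufb11, both on the opposite strand. Over the family, 28 of 42 genes had at most 10% of exon bases under another gene and at most 10% of 50-base words shared. Ndufs6 (14.6%) and Ndufab1 (12.3%) were among those above 10% in shared words alone.

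The assembly factors differed among themselves. Ndufaf4, which works on the Q module, read 6.51, 6.07, 5.54, 6.87 and 6.75 CPM at day 0, 8.32, 9.86, 10.5, 10 and 8.26 at day 1, and 9.76, 10.8, 10.7, 10.2 and 10.6 at day 12. Both exposed groups were above day 0, with log2 fold changes of 0.56 ± 0.073 and 0.71 ± 0.072 (adjusted p = 5.85e-08 and 3.66e-10), the latter the largest increase of any Nduf gene at day 12. Its partner in that step, Ndufaf3, went the other way by day 12. Levels were 19.1, 17.1, 15.8, 17.4 and 17.3 CPM at day 0, 20.1, 18.4, 17.1, 17.8 and 19.5 at day 1, and 14.8, 13.6, 13, 13.1 and 14.2 at day 12, with every day 12 library below every other. The change from day 0 was -0.34 ± 0.054 (adjusted p = 2.28e-06), although it was -0.12 and not called with the reference genes, and the difference from day 1 was -0.44 ± 0.055 (adjusted p = 4.16e-08).

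Ndufaf2, a chaperone that is replaced by its paralog Ndufa12 when the N module is added, was higher at day 12 alone. It read 6.61, 6.32, 6.97, 6.89 and 7.03 CPM at day 0, 6.97, 6.35, 6.28, 6.9 and 7.46 at day 1, and 8.96, 7.83, 9.35, 9.84 and 8.63 at day 12. Day 12 was separate from both other groups, which overlapped. Log2 fold changes were 0.40 ± 0.069 against day 0 and 0.39 ± 0.069 against day 1 (adjusted p = 5.87e-06 and 1.28e-05). Ndufaf1, part of the complex that assembles the ND2 module, was higher by 0.15 and 0.22 (adjusted p = 0.017 and 0.000606), and its day 1 call was lost without day 0 replicate 3 (0.096), under the 10 CPM filter (0.10) and with libraries scaled to Hprt, Tbp and Ppia (0.05), as with the length trend.

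Assembly factors without an Nduf symbol were also examined. Of 12 listed, 11 were tested, and 5 were called higher and 3 lower at day 1 (35.2% and 36.1% of all genes), and 4 and 3 at day 12 (39.2% and 37.2%), shares near those of all genes. Foxred1 was higher by 0.88 ± 0.036 and 0.60 ± 0.036 (adjusted p = 3.42e-19 and 2.46e-15), and Timmdc1 was lower, at -0.70 ± 0.049 and -0.79 ± 0.049 (adjusted p = 1.44e-13 and 6.76e-15). Dmac2 was higher at day 1 (0.60) and lower at day 12 (-0.66), with means of 12.9, 19.6 and 8.17 CPM. Ndufaf5 to Ndufaf8 stand in the table under older Rik symbols and were therefore not among the 42. Of these 4, 3 were called higher at day 1, none higher and 1 lower at day 12.

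**Figure D4:**
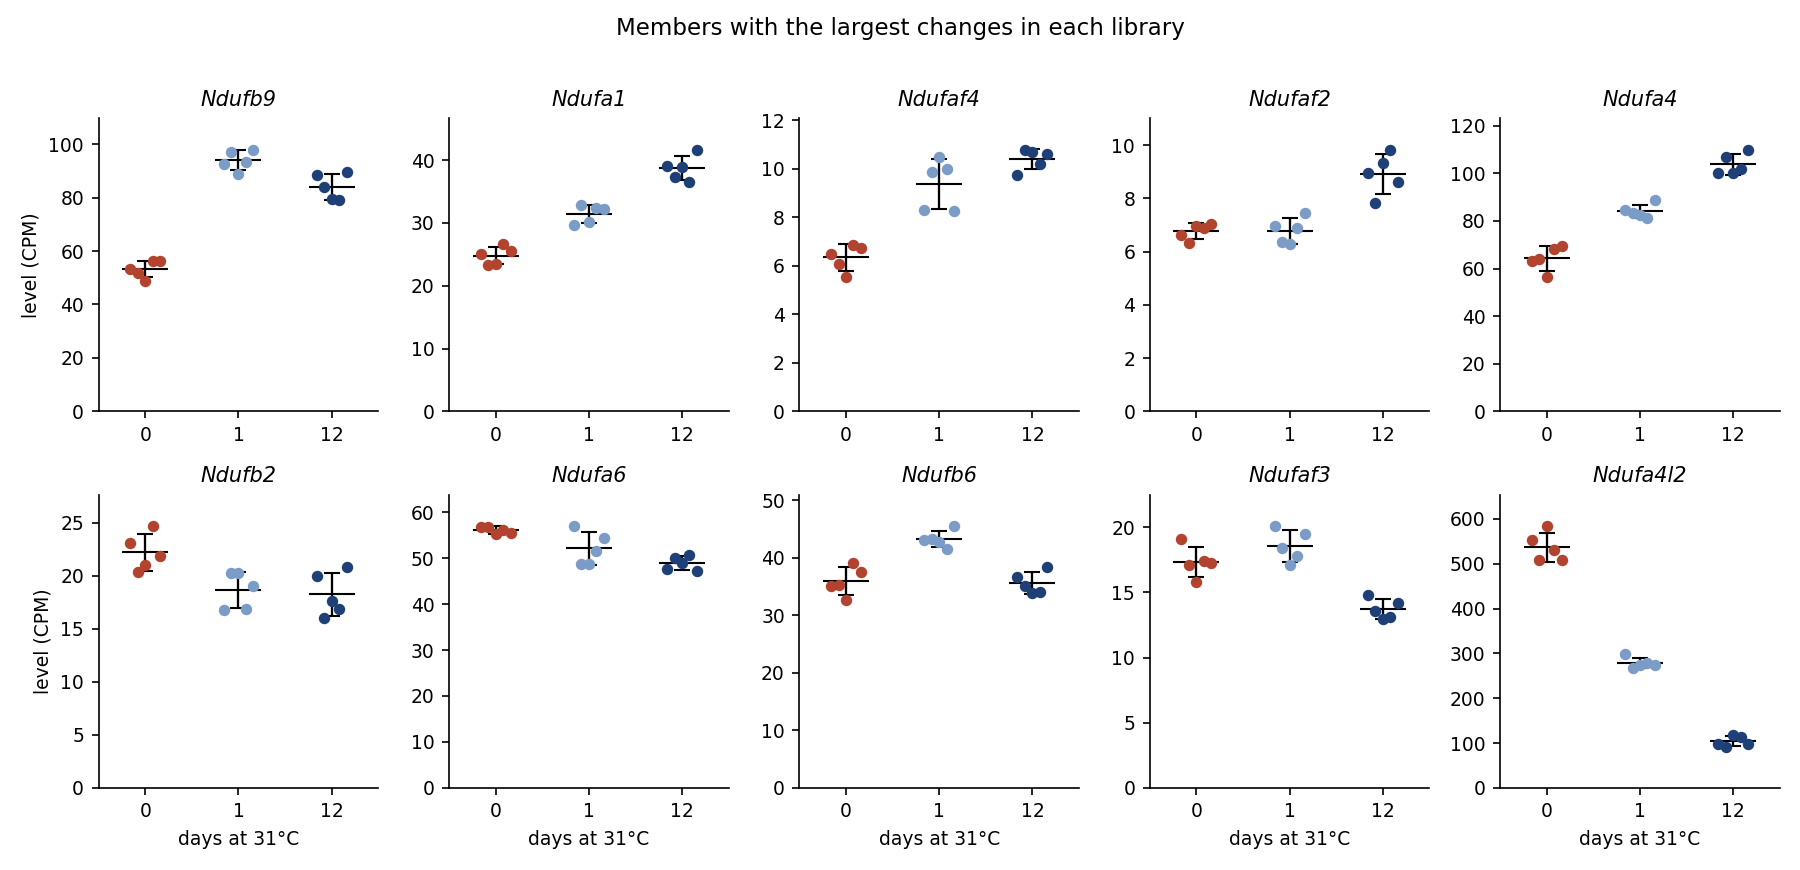
Level in CPM (vertical axis, from 0, on a scale of its own in each panel) against days at 31°C for the Nduf genes with the largest increases and decreases, with a point for each of 5 libraries per group and black lines for the mean ± SD. Ndufa4 climbs from 64.2 to 104 CPM while Ndufa4l2 descends from 537 to 103 CPM, and in both genes the 3 groups are separate.

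The largest decreases of the family belonged to Ndufa4l2, 1 of the pair that are not complex I subunits. Ndufa4 is a subunit of complex IV, and Ndufa4l2 is its paralog, a HIF-1 target known to lower complex I activity in hypoxia. Ndufa4l2 read 553, 509, 584, 530 and 508 CPM at day 0, 299, 268, 274, 279 and 274 at day 1, and 96.7, 91.9, 118, 113 and 98.3 at day 12. The 3 groups were far apart, and the gene fell by 0.94 ± 0.064 at day 1 and 2.38 ± 0.067 at day 12 on the log2 scale (adjusted p = 5.49e-09 and 1.16e-13), to 0.52 and 0.192 of its day 0 level. Between the exposures the difference was -1.43 ± 0.066 (adjusted p = 7.04e-11), and all 3 calls were the same with every scaling tried.

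Ndufa4 moved upward in the same libraries. It read 63, 63.9, 56.4, 68.3 and 69.6 CPM at day 0, 84.4, 83.3, 82.5, 81.2 and 88.6 at day 1, and 100, 107, 100, 102 and 110 at day 12. Again the 3 groups were separate, with log2 fold changes of 0.39 ± 0.044, 0.70 ± 0.044 and, between the exposures, 0.31 ± 0.044 (adjusted p = 4.49e-08, 1.33e-12 and 1.72e-06). Per kilobase of its principal transcript, Ndufa4l2 stood at 575 CPM and Ndufa4 at 105 CPM at day 0, which changed to 299 and 138 at day 1 and to 111 and 170 at day 12. The order of the paralogs was thus exchanged between day 1 and day 12.

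Hypoxia response genes moved with Ndufa4l2. Of 12 listed, 11 were tested, and 10 were called lower and 1 higher (Kdm3a) at day 1, and 10 lower and 0 higher at day 12, with medians of -0.52 and -1.03. Of all genes, 36.1% were called lower at day 1 and 37.2% at day 12. Egln3, which marks HIF for degradation, was lower at day 12, at -2.37 ± 0.085, as were P4ha1 at -1.72 ± 0.029 and Vegfa at -1.61 ± 0.045 (adjusted p = 6.25e-12, 1.38e-28 and 8.81e-18). Oxygen in the medium was not measured in these files, and the part of oxygen in the Ndufa4l2 result was not tested.

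**Figure D5:**
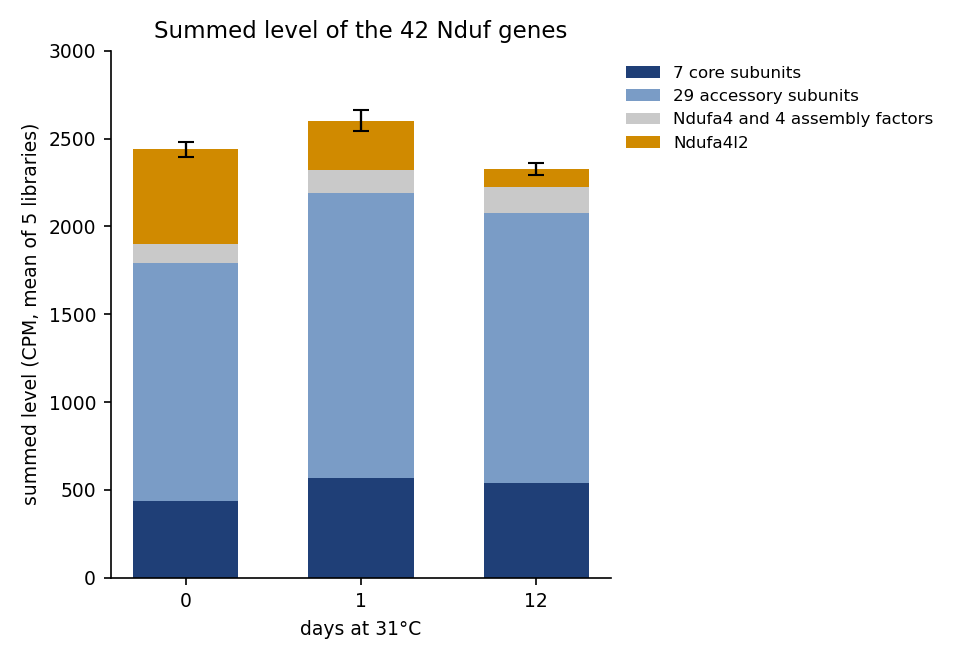
Summed level of the 42 Nduf genes in CPM (bar height, mean of 5 libraries, error bar SD of the total) against days at 31°C, divided into core subunits, accessory subunits, Ndufa4 with the assembly factors, and Ndufa4l2. The total is 2438, 2601 and 2330 CPM, and the Ndufa4l2 segment shrinks from 537 to 103 CPM.

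Since Ndufa4l2 had the most counts of any member at day 0, it weighed on the total. All 42 genes summed to 2438 ± 40 CPM in the day 0 libraries, 2601 ± 60.3 after 1 day and 2330 ± 34.2 after 12 days (SD, n = 5 per group). Ndufa4l2 made up 22% of this at day 0, 10.7% at day 1 and 4.44% at day 12. Without it the total was 1901 ± 56.6, 2322 ± 52.5 and 2226 ± 42.5 CPM, so that the day 12 total was below day 0 with the gene and above it without. Over the 36 complex I subunits alone the sum was 1793, 2189 and 2075 CPM. The sum over all 42 became 2320, 2511 and 2535 CPM under total counts, and 2319, 2472 and 2577 CPM under reference gene scaling, so the day 12 total was above day 0 there.

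Nuclear subunits of the other oxidative phosphorylation complexes are given beside them. Of 38 subunits of complexes II to V, 36 were called higher and 0 lower at day 1, with a median of 0.29, and 31 higher and 1 lower (Cox8a) at day 12, with a median of 0.23. Of all genes, 35.2% were called higher at day 1 and 39.2% at day 12. Between day 12 and day 1, 9 of the 38 were called higher and 16 lower with TMM, beside 34.3% and 32.7% of all genes. The complex I subunits had 30 of 36 called higher at day 1 and 21 at day 12, with 2 and 4 lower, and medians of 0.26 and 0.16. No test was made between the lists.

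Other transcripts moved beside the Nduf results. The cycling markers Mki67, Top2a and Ccnb1 were all called higher at day 12, by 1.84, 1.63 and 2.16, and their summed level was 32.7 to 41.7 CPM at day 0, 35.4 to 46.5 at day 1 and 112 to 136 at day 12. The cartilage markers Acan, Col2a1, Sox9 and Comp, of interest in cells from ear, summed to 3671 to 4403 CPM at day 0, 3905 to 4062 at day 1 and 1128 to 1222 at day 12, with Comp at -2.02 and Col2a1 at 0.29 against day 0. Of 4 mesothelial markers 2 were tested and Msln was higher by 5.51, with a summed level of 0.787 to 1.24 CPM at day 0 and 22.4 to 37.1 at day 12, while Wt1 had a mean of 0 CPM at day 12 and Upk3b of 0.022. Adipocyte markers were divided, with 4 called higher and 3 lower at day 1 and 3 and 4 at day 12, among them Fabp4 (0.76 and 0.97) and Adipoq, which did not pass at day 1 and was at -1.24 at day 12. The part of cell composition in the Nduf results was not tested.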

How the data were processed

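Per the labels and the study's methods, total RNA of cultured adipocytes was sequenced, and the authors used FastQC, aligned reads with TopHat 2.0.13 and Bowtie2 2.2.1 to mm10 (GRCm38) and made raw counts per gene with HTSeq. These deposited counts were the values used. Strandedness and counting mode are not given in the sources used here, so overlaps over 10% of exon bases are stated beside genes whose values are printed in full. The authors also deposited regularized log2 values and DESeq2 tables of fold change and p-value for each time point, which were not used. The members and gene lists were chosen with earlier results of these data known, and list counts are descriptions.

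Groups came from the labels, with 5 libraries each. Genes were kept by filterByExpr (minimum count 10), scaled by TMM, and tested with edgeR 4.0.16 (R 4.3.3; robust quasi-likelihood fit, 15 libraries, no covariate, Benjamini-Hochberg). SE is the log2 fold change over the square root of F. A count of 0 allows up to 3 counts, or 0.0238 to 0.0428 CPM (counting error only). Lengths, overlaps and shared 50-base words are from the GENCODE M21 principal transcript. The text prints values in every library for the core subunits, Ndufb8, Ndufa4, Ndufa4l2, and the 3 largest increases and 3 largest decreases called in each comparison, among members with a mean of at least 1 CPM. For 1 core subunit, counted in the totals, values are not reported here. The fit was tested on simulated data. Alternatives covered scaling, filters, DESeq2 1.42.0, length, GC content, library number series, a replicate block and leaving out each library.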

Additional observations from a re-analysis of the deposited data

Results flagged for a closer look

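Among 126 sets of 5 library values (42 genes in 3 groups), 8 had a library far from the other 4 by Dixon's criterion (gap over range above 0.71), where chance alone gives about 1 in 20 sets. Ndufa12 was high in day 1 replicate 1, at 48.7 CPM against 41.4 to 43.4 in the others. In the same library Ndufv2 was high, at 91.2 CPM against 82.3 to 84.6. Ndufs7 was high in day 1 replicate 5, at 51.1 CPM against 43.6 to 44.8, and its day 1 call was lost without that library. Ndufs1 was low in day 1 replicate 2, at 75.4 CPM against 77.8 to 78.8. At day 0, Ndufs4 was low in replicate 3, at 57.3 CPM against 62.8 to 64.2, and Ndufa7 in replicate 2, at 98.9 CPM against 104 to 106. At day 12, Ndufv2 was high in replicate 4, at 79.1 CPM against 73.5 to 74.4, and Ndufa7 in replicate 5, at 106 CPM against 103 to 104. No cause was tested.

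The change from day 0 differed between 12 days and 1 day at 31°C in 25 members by the edgeR contrast of day 12 with day 1, which is a test of the difference itself (adjusted p under 0.05). With TMM it was higher after 12 days in Ndufaf2 by 0.39, Ndufa4 by 0.31, Ndufa1 by 0.30, Ndufs8 by 0.24 and Ndufa10 by 0.11 on the log2 scale. Log2 differences below 0 were -1.43 in Ndufa4l2, -0.44 in Ndufaf3, -0.28 in Ndufb6, -0.27 in Ndufs7, -0.26 in Ndufc1, -0.21 in Ndufa5 and -0.20 in Ndufs3. They were -0.19 in Ndufab1 and Ndufs4, -0.18 in Ndufc2 and Ndufv2, -0.17 in Ndufa2 and Ndufs6, -0.16 in Ndufa8 and Ndufb9, and -0.15 in Ndufa7 and Ndufb3. The smallest were -0.097 in Ndufb11, -0.092 in Ndufa6 and -0.079 in Ndufs1. The call of Ndufa6 was lost without day 1 replicate 1 or 5 or day 12 replicate 1 or 5 (-0.082 to -0.058), and that of Ndufb11 without day 1 replicate 1 or 5 or day 12 replicate 3 or 4 (-0.082 to -0.079). With the reference genes, the differences of Ndufa4l2 and Ndufaf3 kept their sign and call, those of Ndufb6, Ndufs7 and Ndufc1 kept their sign only, and the other 15 negative differences changed sign.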

How the results depend on the processing

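Of the 126 pairs of member and comparison, 95 were recomputed, those called with TMM and those of the core subunits, Ndufb8, Ndufa4 and Ndufa4l2. Direction and call stayed for 94 of 95 with DESeq2, 94 with RLE, 95 with the library number series as a covariate and 92 with the larger number series (11 libraries). A GC trend kept 91 and a length trend 81. Total counts kept 72, the reference genes 69, and the reference genes without Gapdh, added after Gapdh was seen to fall, 65. Requiring 1.5-fold left 3 higher and 1 lower member at day 1, 5 and 1 at day 12, and 0 and 1 between the exposures. Lower calls at day 12 numbered 2 under total counts and 1 under reference gene scaling, where 25.4% and 23.7% of all genes were called lower. Between day 12 and day 1, higher calls numbered 21 under total counts, 24 under the reference genes, 20 without Gapdh and 8 under the length trend, and lower calls 4, 2 and 4 with the first 3 of these. Of all genes, 54%, 57.9%, 50.9% and 34.4% were called higher in the same order. Lower calls took in 18.6%, 15.5% and 19.2% of all genes with the first 3. The cause was not tested.

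The median between the exposures became 0.094 with total counts, 0.14 with the reference genes and 0.076 without Gapdh. At day 12 against day 0, Ndufs7 became 0.035 under total counts, and reference gene scaling put Ndufs7 at 0.06, Ndufa6 at 0.019 and Ndufc1 at 0.019. Between day 12 and day 1, total counts gave 0.0073 for Ndufa2, 0.081 for Ndufa6, 0.024 for Ndufa7, 0.011 for Ndufa8, 0.076 for Ndufb11, 0.019 for Ndufb3, 0.14 for Ndufb8, 0.013 for Ndufb9, 0.093 for Ndufs1, 0.0023 for Ndufs6 and 0.11 for Ndufv1. The reference genes gave 0.055 for Ndufa2, 0.0065 for Ndufa5, 0.13 for Ndufa6, 0.071 for Ndufa7, 0.058 for Ndufa8, 0.028 for Ndufab1, 0.12 for Ndufb11, 0.066 for Ndufb3, 0.19 for Ndufb8, 0.06 for Ndufb9, 0.037 for Ndufc2, 0.14 for Ndufs1, 0.019 for Ndufs3, 0.026 for Ndufs4, 0.049 for Ndufs6, 0.16 for Ndufv1 and 0.039 for Ndufv2. Without Gapdh the values were 0.062 for Ndufa6, 0.005 for Ndufa7, 0.057 for Ndufb11, 0.12 for Ndufb8, 0.075 for Ndufs1 and 0.096 for Ndufv1. Ndufb8 also turned with the length trend (0.03) and the GC trend (0.0091). Ndufb8 and Ndufv1 were not called between the exposures with TMM.

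Leaving out 1 library at a time left 32 to 34 higher and 2 to 3 lower members at day 1, 23 to 25 and 6 at day 12, and 5 to 6 and 18 to 21 between the exposures. Over these refits of the 95 pairs, a call or non-call was kept 1402 times and lost 23 times, all in Ndufa6, Ndufaf1, Ndufb10, Ndufb11, Ndufs1 or Ndufs7. Replicate numbers recur across groups, and same-numbered libraries deviated together weakly at most (correlations from -0.0255 to 0.0436, median 0.0195, 0 of 15 over 0.1). Libraries of different number had correlations from -0.0419 to 0.0514, with a median of -0.00179, and 10 of 15 libraries correlated best with their own number. With the replicate number as a block, 34 members were called higher and 3 lower at day 1, 25 and 6 at day 12, and 5 and 20 between the exposures, and all 95 calls stayed. The median without Ndufa4, Ndufa4l2, the assembly factors and Ndufs5, chosen after seeing the data, was 0.25, 0.17 and -0.079.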
